A study of Mus musculus with 8 samples.

Results

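A set of 10 genes for carrying fatty acids from circulating triglyceride into the heart was followed in RNA sequencing of mouse heart tissue, to learn how their mRNA levels stood when Gpihbp1 was missing. The set was chosen by gene symbol and held 10 of the 17190 genes listed: Lpl, Lmf1, Lipg, Angptl4, Vldlr, Cd36, Slc27a1, Fabp3, Fabp4 and Fabp5. All 10 were found, and 9 had enough reads to be tested. Lipg did not. The wild-type group held 4 hearts, numbered 2, 4, 5 and 6 in the sample titles, and the Gpihbp1-/- group, called knockout here, held 4 hearts numbered 1, 2, 3 and 4. All were from males fed standard chow. The labels give genotype and tissue, and neither the age, the strain, the design of the knockout allele nor the chambers dissected is given in the sources used here. Shared litters and handling days are not stated either. Any p-value here sets the difference between genotypes against the scatter of these 8 libraries and treats the hearts as independent.

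Lipoprotein lipase, made mainly by cardiomyocytes and adipocytes, splits the triglyceride of chylomicrons and very low density lipoproteins into fatty acids. Lmf1 matures the enzyme in the endoplasmic reticulum, Gpihbp1 carries it across the capillary endothelium to the lumen, and Angptl4 inactivates it. The released fatty acids cross the endothelium and the cardiomyocyte membrane with the help of Cd36 and of the Slc27 (fatty acid transport protein) family, and small binding proteins of the Fabp family carry them through the cytosol. The Vldl receptor takes up whole particles and remnants. Many of these genes are targets of the lipid-sensing PPAR nuclear receptors.

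Before the members, the labels were checked. Gpihbp1 was counted 833 to 1951 times in each wild-type library. Over the knockouts it was counted 1 time, in knockout 3, so every library matched its genotype. All 12 cardiomyocyte markers were read in every library, with a summed TPM (transcript abundance scaled for gene length and library size) from 58972 to 134397. Total counts per library ran from 9065553 to 13492957. A group of 3 hearts stood apart. Wild-type 2 and knockout 2 formed 1 end of the main axis of variation (53.1% of the variance) and had high fibroblast and macrophage markers. Wild-type 6 formed 1 end of the next axis (24.2%) and had high red cell markers and 3 genes of atrial muscle. Results that rest on these libraries are given with and without them.

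None of the 9 tested members passed the test between genotypes. In edgeR's quasi-likelihood test over 12826 genes, 0 of 9 had an adjusted p under 0.05, where 0.0312% of all tested genes did, and 0 of 9 had an unadjusted p under 0.05, where 0.904% of genes did. DESeq2 and limma on log2 TPM also called 0 members. The groups' ranges of CPM (read counts scaled for library size by TMM) overlapped for all 10 members, and they did not overlap for 0.632% of tested genes. Of the 9 log2 fold changes, knockout over wild type, 3 were positive and 6 negative, with a median of -0.22, against -0.019 over all tested genes. These counts sit at the level of the background and say nothing particular about the members. Nor do they show that the groups are alike, since the 95% intervals were wide.

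**Figure D1:**
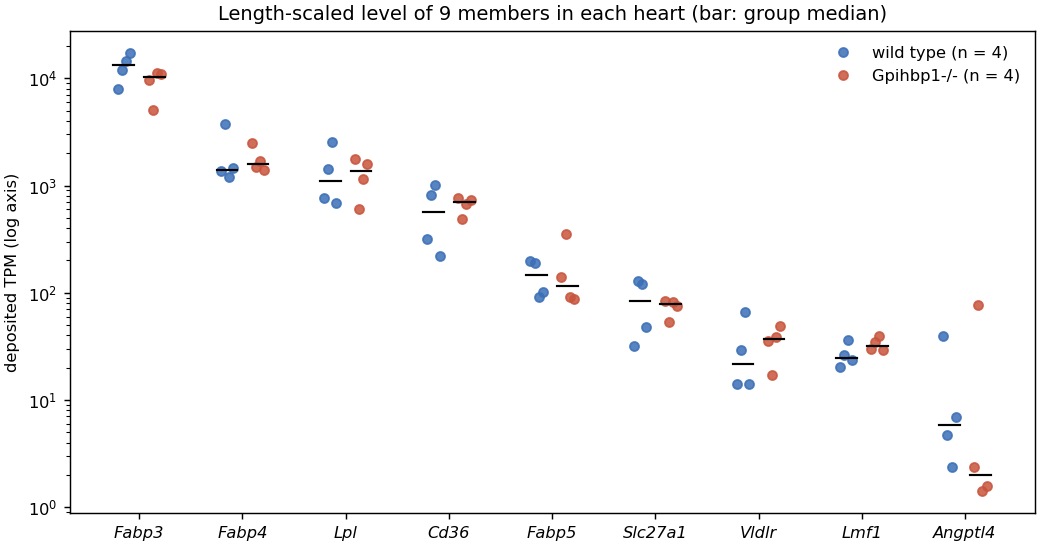
Deposited TPM (log axis) of 9 members in each heart, wild type in blue and Gpihbp1-/- in red, n = 4 each, with a bar at each group's median; Lipg, listed at 0 in 1 library, is left out. Fabp3 lies above all the others, and Angptl4 spans from 1.41 to 76.94 TPM.

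On the TPM scale, which allows levels of different genes to be compared, the members spanned a wide range. Fabp3, the fatty acid binding protein of heart and skeletal muscle, was the most abundant, with a median of 11188 TPM over the 8 hearts. Fabp4, the carrier of capillary endothelium and adipocytes, followed at 1485, Lpl at 1288 and Cd36 at 699.8 TPM. Fabp5, an epidermal-type carrier also found in endothelium and macrophages, had 121.7 and the transporter Slc27a1 had 78.45. The receptor Vldlr and the maturation factor Lmf1 had 32.1 and 29.5 TPM. Angptl4 had 3.535 TPM, and Lipg, the endothelial lipase of high density lipoproteins, 0.06.

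Only the ends of this order were separated in full. The lowest Fabp3 value, 5119 TPM, was above the highest Fabp4 value, 3794, and the lowest Angptl4 value, 1.41, was above the highest Lipg value, 0.33. Within single hearts Lpl exceeded Cd36, Cd36 exceeded Fabp5 and Slc27a1 exceeded Vldlr in 8 of 8 libraries, although their ranges across hearts overlapped. Fabp4 exceeded Lpl in 6 of 8, Fabp5 exceeded Slc27a1 in 7 of 8, Lmf1 exceeded Angptl4 in 6 of 8, and Vldlr exceeded Lmf1 in 4 of 8, so the last pair had no order. Together the 10 members made up between 0.825% (knockout 2) and 1.979% (wild-type 6) of all TPM in a library.

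**Figure D2:**
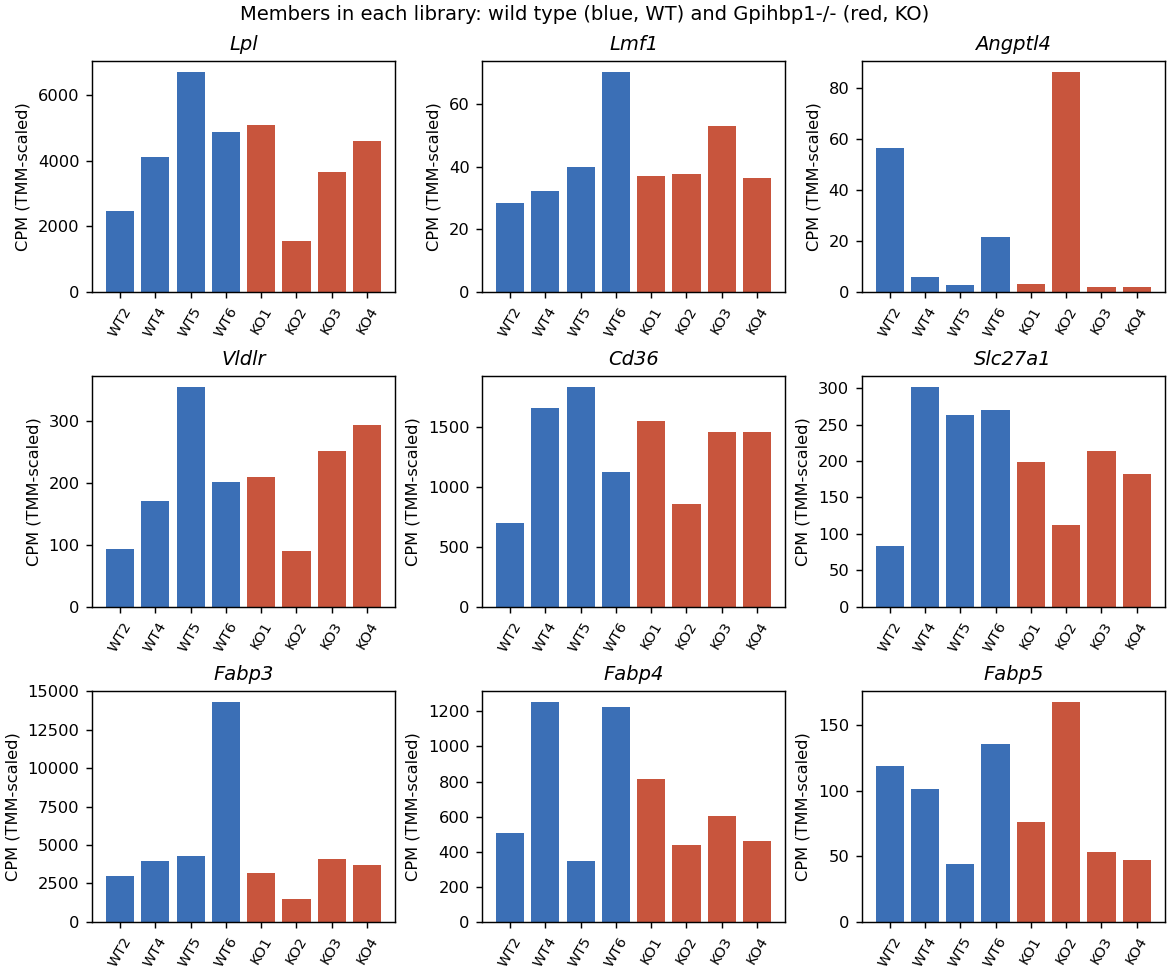
CPM (TMM-scaled read counts, linear axes from 0) of the 9 tested members in each library, wild type (WT) in blue and Gpihbp1-/- (KO) in red, 1 bar per heart. WT2 and KO2 are the lowest pair for Lpl, Cd36, Vldlr, Slc27a1 and Fabp3 and the highest pair for Angptl4, and WT6 holds the highest Fabp3 and Lmf1.

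Lpl itself, the enzyme that loses its carrier in the knockout, was read at 2472, 4128, 6708 and 4882 CPM in wild-type 2, 4, 5 and 6. In knockout 1, 2, 3 and 4 it was read at 5087, 1559, 3646 and 4611 CPM. The groups overlapped: wild-type 5 was the highest and knockout 2 the lowest of the 8, with wild-type 2 next above it. The log2 fold change was -0.29 with a standard error of 0.49 (edgeR unadjusted p = 0.573, adjusted p = 0.99998). As a ratio, the 95% interval of knockout over wild type ran from 0.381 to 1.76. With 4 hearts a group, the data were thus compatible with lower, equal or higher Lpl mRNA within these bounds. Without wild-type 2 and knockout 2 the log2 fold change was -0.23, with an interval from -1.16 to 0.70, and without wild-type 6 as well it was -0.28, from -1.01 to 0.44.

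Lmf1, the endoplasmic reticulum protein that lets the lipase fold and dimerise, varied least among the tested members, with an SD of 0.41 in log2 CPM, above that of 43.8% of tested genes. It had 28.3, 32.2, 40.0 and 70.3 CPM in wild-type 2, 4, 5 and 6 and 36.9, 37.7, 53.1 and 36.3 CPM in knockout 1, 2, 3 and 4. On this scale wild-type 6 was the highest and wild-type 2 the lowest, so the wild-type group enclosed the knockout group. On the TPM scale it did not: the wild type ran from 20.45 to 35.86 TPM, with wild-type 6 the second lowest of the 8 hearts, and the knockout from 29.16 to 39.05. On the log2 scale the difference was -0.057, with a 95% interval from -0.75 to 0.63. Its sign was positive without wild-type 6, at 0.27, and with library totals as the only scaling, at 0.13; neither fit passed. Lipg rested on 13 wild-type and 14 knockout reads, 12 of the latter in knockout 2. That is too few for a test, and no difference was detectable at this depth.

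Angptl4, the secreted inhibitor of lipoprotein lipase, varied most. Wild-type 2, 4, 5 and 6 gave 56.2, 5.89, 2.71 and 21.5 CPM, and knockout 1, 2, 3 and 4 gave 3.01, 86.1, 1.96 and 1.98 CPM, from 20 to 1312 reads a library. The 3 highest hearts were thus knockout 2, wild-type 2 and wild-type 6, the same 3 that stood apart, and the highest was 43.98 times the lowest. The SD of its log2 CPM, 2.17, was above that of 99.7% of tested genes. Over all 8 hearts the log2 fold change was 0.11, with an interval from -2.88 to 3.10.

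The Angptl4 difference depended on which hearts entered. Leaving out knockout 2 turned it to -3.21 (edgeR unadjusted p = 0.00834, adjusted p = 0.999), and without wild-type 2 it was 1.24. The omission of wild-type 4 gave -0.20 and that of wild-type 5 gave -0.26. Over the fits without 1 library its adjusted p was never below 0.993. Without wild-type 2 and knockout 2 it was -2.07, with an interval from -3.64 to -0.51 (edgeR unadjusted p = 0.0153, adjusted p = 0.999985). Without wild-type 6 as well, 2 wild-type hearts at 5.89 and 2.71 CPM stood against 3 knockout hearts at 3.01, 1.96 and 1.98, a log2 fold change of -0.88 with an interval from -1.89 to 0.13. The last 2 fits were chosen after seeing the data.

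Vldlr, the receptor that takes up triglyceride-rich particles in heart and muscle, had 93.4, 171, 355 and 202 CPM in wild-type 2, 4, 5 and 6 and 209, 90.2, 251 and 294 CPM in knockout 1, 2, 3 and 4. Knockout 2 and wild-type 2 were the lowest pair, and wild-type 5 was the highest. Knockout over wild type, the log2 value was 0.040 with an interval from -1.01 to 1.09, and with 1 library left out it ran from -0.20 to 0.44. It was negative in the fits that lacked 2 or 4 of the wild type, or 3 or 4 of the knockout.

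Cd36, the membrane protein through which most fatty acid enters cardiomyocytes, had 697, 1656, 1833 and 1121 CPM in wild-type 2, 4, 5 and 6. In knockout 1, 2, 3 and 4 it had 1549, 856, 1461 and 1460 CPM. Wild-type 2 and knockout 2 were again the lowest pair, and the other 3 knockout hearts lay close together within the wild-type range. The log2 fold change was 0.0051 with a standard error of 0.41, and as a ratio the interval ran from 0.534 to 1.89. The sign of so small a value turned with RLE scaling (-0.014) and in 5 of the 8 fits with 1 library left out, which ran from -0.21 (wild-type 2 left out) to 0.20 (wild-type 5 left out). Slc27a1, fatty acid transport protein 1, had 83.0, 301, 263 and 269 CPM in wild-type 2, 4, 5 and 6 and 198, 112, 213 and 183 CPM in knockout 1, 2, 3 and 4. Leaving aside wild-type 2 and knockout 2, the 3 remaining wild-type hearts were above the 3 remaining knockout hearts, a comparison made after the values were seen that did not hold on the TPM scale, where wild-type 6 had 48.29 TPM. The log2 fold change was -0.38 (SE 0.41, edgeR unadjusted p = 0.380) over all hearts and -0.49 without that pair (edgeR unadjusted p = 0.119, adjusted p = 0.999985).

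Cd36, Slc27a1 and Vldlr were all low in wild-type 2 and knockout 2, and the 250 bases before their start sites, from RefSeq's GRCm38.p6 annotation, are shown for that reason. The table used held starts for 5 of the 10 members (Cd36, Slc27a1, Vldlr, Fabp3 and Lmf1), and where a gene had several, the most upstream is printed. Capitals mark matches, on either strand, to AGGTCA, the hexamer bound by PPAR and other nuclear receptors, to CCAAT and to GGGCGG.
Cd36, chr5:17835897-17836146, minus strand: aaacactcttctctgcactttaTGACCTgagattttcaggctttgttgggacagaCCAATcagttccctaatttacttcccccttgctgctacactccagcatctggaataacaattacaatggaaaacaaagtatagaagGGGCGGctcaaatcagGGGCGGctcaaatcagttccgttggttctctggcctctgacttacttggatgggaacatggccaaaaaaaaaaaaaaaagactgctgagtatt
Slc27a1, chr8:71568621-71568870, plus strand: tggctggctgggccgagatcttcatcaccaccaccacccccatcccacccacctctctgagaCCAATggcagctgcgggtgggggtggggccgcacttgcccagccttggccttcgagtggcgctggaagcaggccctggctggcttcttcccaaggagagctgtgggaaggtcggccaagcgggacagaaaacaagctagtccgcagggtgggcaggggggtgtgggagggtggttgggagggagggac
Vldlr, chr19:27216234-27216483, plus strand: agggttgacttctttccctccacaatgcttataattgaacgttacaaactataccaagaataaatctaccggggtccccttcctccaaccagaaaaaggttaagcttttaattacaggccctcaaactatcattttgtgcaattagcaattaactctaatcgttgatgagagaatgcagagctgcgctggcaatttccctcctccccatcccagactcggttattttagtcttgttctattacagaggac

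The Cd36 stretch held 1 AGGTCA on the reverse strand (228 to 223 bases before the start, positions -228 to -223), 1 CCAAT box and 2 GGGCGG boxes that begin at -109 and -93. The Slc27a1 stretch held 1 CCAAT box, and the Vldlr stretch held none of the motifs. Of 32851 stretches of the same length, 14.0% held AGGTCA, 33.8% CCAAT and 32.7% GGGCGG. The PPAR-type direct repeat, 2 copies of AGGTCA spaced by 1 base, was in 0 of the 8 stretches listed for members and in 0.0335% of all. The GC content was 43.2% for Cd36, 66.4% for Slc27a1 and 41.6% for Vldlr, with a median of 52.4% over all stretches. The count depended on the start taken. The most downstream start of Slc27a1 had 1 CCAAT and 3 GGGCGG, its middle start had 1 GGGCGG, and the other start of Vldlr had 1 CCAAT and 1 GGGCGG. No motif of those searched was thus in all 3 printed stretches. CCAAT and GGGCGG each lay before at least 1 start of all 3 genes, with more than 1 start searched for Slc27a1 and Vldlr. Fabp3, also lowest in knockout 2 and wild-type 2 on the CPM scale, held none of the motifs in its stretch. The Lmf1 stretch held 1 GGGCGG. Whether any motif bears on the levels was not tested. AGGTCA was found in the Cd36 stretch alone among the 8.

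Fabp3, the cardiomyocyte carrier, had the largest difference between group means among the tested members. It had 2997, 3969, 4287 and 14288 CPM in wild-type 2, 4, 5 and 6. In knockout 1, 2, 3 and 4 it had 3177, 1496, 4063 and 3715 CPM. Wild-type 6 stood more than 3-fold above every other heart, and it was also the highest on the TPM scale, at 17215 against 14638 in wild-type 5. The log2 fold change was -1.04 (SE 0.60, edgeR unadjusted p = 0.116, adjusted p = 0.99998). Without wild-type 2 and knockout 2 it was also -1.04. Without wild-type 6 it was -0.29 (edgeR unadjusted p = 0.507), and without wild-type 2, knockout 2 and wild-type 6 it was -0.18, with an interval from -0.75 to 0.40. Fabp3 made up 0.9668% of all reads in wild-type 6 and between 0.1696% and 0.4606% elsewhere.

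Fabp3 was then set against cardiomyocyte mRNA of the same heart. Its TPM was 13.6%, 10.15%, 11.93% and 14.52% of the summed TPM of the 12 cardiomyocyte markers in wild-type 2, 4, 5 and 6. It was 7.86%, 8.45%, 8.41% and 8.644% in knockout 1, 2, 3 and 4. The 4 knockout hearts lay below the 4 wild-type hearts, with means of 8.34% ± 0.337 and 12.6% ± 1.93 (SD, n = 4 each), and a two-sided exact permutation test over the 70 arrangements gave p = 0.0286, the smallest it can give. This was 1 of 9 within-heart ratios computed, and adjusted over the 9 the exact permutation p was 0.257. The ratio was singled out after its values were seen, so its test is not independent of that choice. Taken as a ratio of reads, the values ran from 4.00% to 8.08% in the wild type and from 3.13% to 3.40% in the knockout, again without overlap. The separation held for 11 of the 12 sums with 1 marker left out and was lost without the cardiac actin gene Actc1, and it was seen against 0 of the 12 markers taken singly. Of all 12826 tested genes, 10, or 0.078%, were lower in every knockout heart on this ratio, and another 20 were higher in every knockout heart. Fabp3 was the only member among the 10, and 0 members were among the 20.

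**Figure D3:**
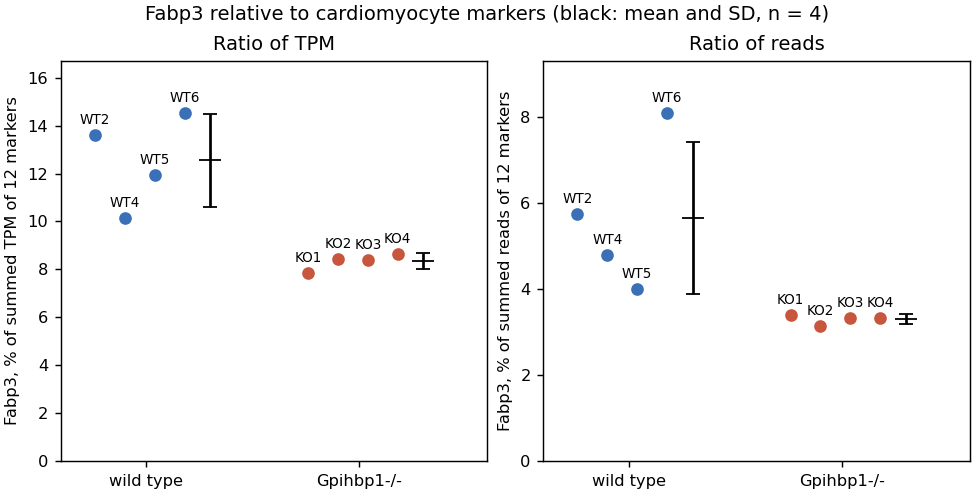
Fabp3 as a percentage of the summed level of 12 cardiomyocyte markers in each heart, from TPM (left) and from reads (right), with the mean and SD of each group in black, n = 4 each; axes start at 0. The TPM ratio runs from 10.15% to 14.52% in the wild type and from 7.86% to 8.644% in the knockout.

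Fabp4, a marker of capillary endothelium as well as of fat, had 507, 1252, 346 and 1222 CPM in wild-type 2, 4, 5 and 6 and 812, 437, 603 and 461 CPM in knockout 1, 2, 3 and 4. On the CPM scale the 2 highest and the lowest heart were all wild type. By TPM knockout 1, at 2491, stood above wild-type 6, at 1467. The knockout values fell inside the wild-type range on both scales. The log2 fold change was -0.52, with an interval from -1.59 to 0.54 (edgeR unadjusted p = 0.297). Of 8 adipocyte markers, Adipoq had at most 4, Plin1 at most 3, Cidec at most 7, Lep at most 1, Retn at most 9, Ucp1 at most 1 and Cfd at most 14 reads in a library, the highest of Adipoq, Cidec, Retn and Cfd in wild-type 6, while Fabp4 had 3962 to 13174. Cidea, the other marker, had 284 to 636 reads. The part of fat cells in the Fabp4 level was not tested. Endothelial markers moved with Fabp4 in part. The summed TPM of the 12 endothelial markers ran from 445.2 to 1743 in the wild type and from 638.6 to 1284 in the knockout, highest in wild-type 4 and knockout 1, the same 2 hearts in which Fabp4 TPM was highest (3794 and 2491). Fabp4 was 1.34 to 3.29 times that sum in the wild type and 1.65 to 2.35 times in the knockout. In whole tissue, fewer cells of a type and less RNA per cell cannot be told apart.

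Fabp5 had 119, 101, 44.2 and 136 CPM in wild-type 2, 4, 5 and 6 and 76.1, 168, 53.2 and 47.6 CPM in knockout 1, 2, 3 and 4. On the CPM scale the 3 highest hearts were knockout 2, wild-type 6 and wild-type 2, the same as for Angptl4. This did not hold by TPM, where wild-type 4 had 188.2 and wild-type 6 had 102.1. The log2 fold change of Fabp5 was -0.22, with an interval from -1.27 to 0.84. Without wild-type 2 and knockout 2 it was -0.66 (edgeR unadjusted p = 0.141, adjusted p = 0.999985). With wild-type 6 left out as well it was -0.30, with an interval from -1.19 to 0.59 (edgeR unadjusted p = 0.453). Without wild-type 6 alone it was -0.048.

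**Figure D4:**
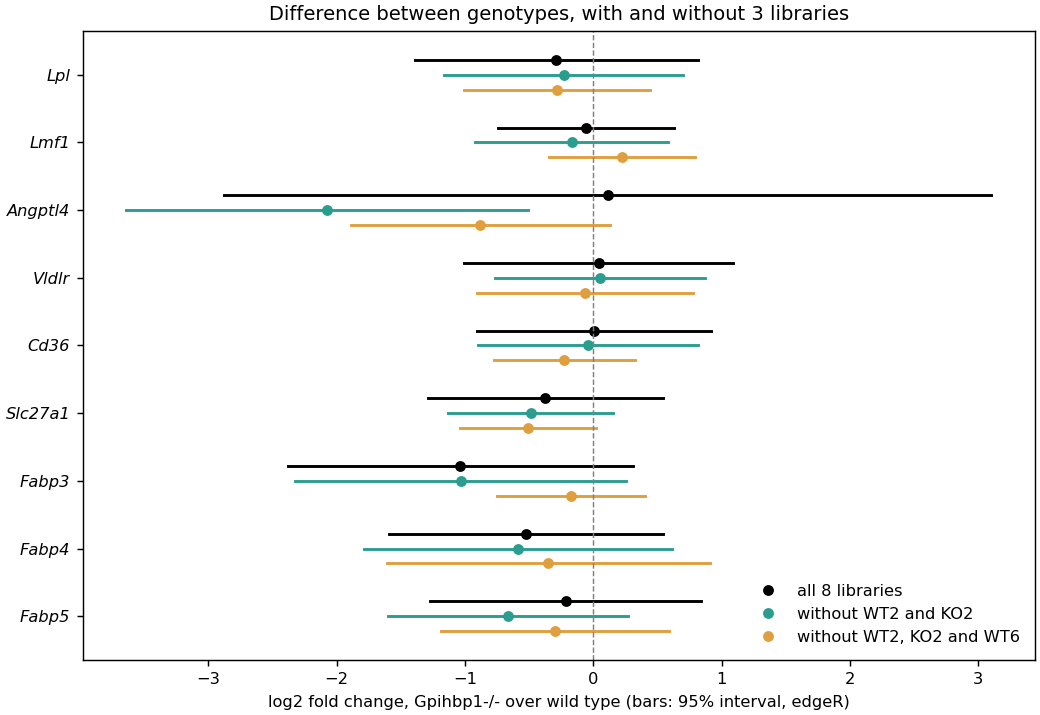
Log2 fold change, Gpihbp1-/- over wild type, of the 9 tested members with 95% intervals from edgeR, over all 8 libraries (black), without WT2 and KO2 (green) and without WT2, KO2 and WT6 (orange). All intervals span 0 except that of Angptl4 without WT2 and KO2, from -3.64 to -0.51, whose adjusted p in edgeR was 0.999985.

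Across hearts, the members split into those that were low and those that were high in wild-type 2 and knockout 2. On the CPM scale these 2 hearts were the lowest pair for Lpl, Cd36, Vldlr, Slc27a1 and Fabp3 and the highest pair for Angptl4. Markers moved alongside. Summed fibroblast markers were 10091 and 12307 CPM in wild-type 2 and knockout 2 and 996.0 to 1258 in the other 6 hearts. Macrophage markers were 4926 and 3304 CPM against 474.7 to 895.0. Cardiomyocyte markers were 52141 and 47824 CPM, against 83057 to 176883 elsewhere, and endothelial markers 936.1 and 1134 CPM, against 1740 to 3487 elsewhere. The lower levels of the 5 members thus stood beside lower summed cardiomyocyte and endothelial markers. The higher Angptl4 stood beside higher summed macrophage and fibroblast markers. Single markers did not all follow their sum. Among fibroblast markers, Dcn had 536 CPM in knockout 2, within the 516 to 636 of the other 6 hearts, and 744 in wild-type 2. Tcf21 had 12.5 CPM in knockout 2, against at most 11.7 in those 6. Among cardiomyocyte markers, Actc1 (13807 and 14254 CPM in wild-type 2 and knockout 2) was higher in both than in wild-type 4 (8150) and knockout 1 (9608). Ryr2 (442 and 536 CPM) was higher in both than in wild-type 4 (436). The part of these cell types in the members' levels was not tested.

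Wild-type 6 had a pattern of its own. Of 5 atrial markers, Myl4, Myl7 and Sln had 6932, 3037 and 2530 reads there and at most 34, 5 and 2 reads in any other heart. Bmp10 had at most 1 read in any heart. Nppa, which is also known to rise in ventricles under strain, was high in 3 hearts, with 44970, 68067 and 23210 reads in wild-type 2, knockout 2 and wild-type 6 and 1793 to 3040 elsewhere, so that the summed list stood at 3135, 4469 and 5019 CPM in these 3 against 158.7 to 300.8. Summed red cell markers stood at 12281 CPM in wild-type 6 against at most 1517 elsewhere. The part of these cells in the members' levels was not tested. Its place depended on the scale. On the CPM scale wild-type 6 was among the 3 highest hearts for Lpl, Slc27a1 and Lmf1, at 4882, 269 and 70.3 CPM, whereas on the TPM scale it was among the 3 lowest for Lpl, Cd36, Vldlr, Slc27a1 and Lmf1, at 692.7, 219.4, 14.15, 48.29 and 23.34 TPM. Its TMM factor was 0.678, against 0.964 to 1.16 in the other libraries. In limma on log2(TPM + 1), the median over all genes was 0.25 rather than -0.019, and Lpl stood at 0.00066, Slc27a1 at 0.046, Fabp5 at 0.044, Lmf1 at 0.33 and Angptl4 at -0.48, each of opposite sign to the CPM fit. Relative to that median, Lpl, Fabp3, Fabp4, Fabp5 and Slc27a1 were below and Cd36 and Vldlr above on either scale, while Lmf1 and Angptl4 changed sides.

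**Figure D5:**
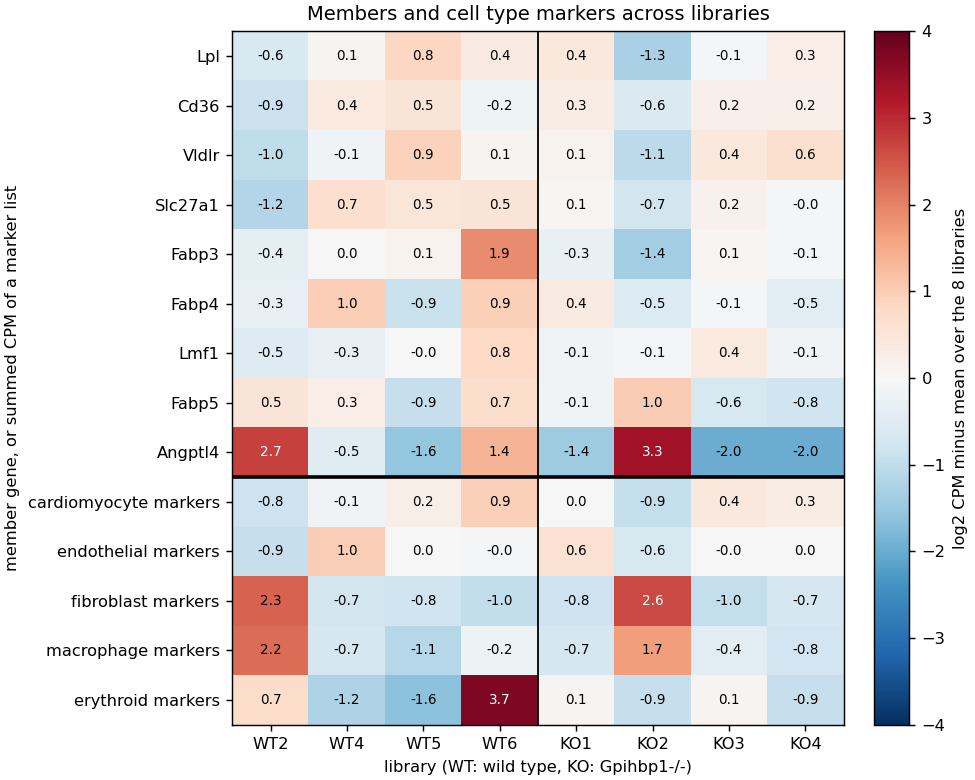
Log2 CPM minus its mean over the 8 libraries (colour and printed value) for the 9 tested members, above the line, and for the summed CPM of 5 marker lists, below it; WT is wild type and KO is Gpihbp1-/-. WT2 and KO2 share low Lpl, Cd36, Vldlr and Slc27a1 and high Angptl4, fibroblast and macrophage markers, and WT6 stands apart in Fabp3 and red cell markers.

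The genes whose pattern over the 8 hearts was most like that of a member were found as those with the smallest root mean square distance of centred log2 CPM, among 9251 genes with a mean of at least 10 CPM. For Fabp4 these were Egfl7, Ramp2 and Ly6c1, at 0.178, 0.187 and 0.199, all known as genes of endothelial cells, against a median of 0.767 over all genes compared. For Angptl4 they were Lgals3, S100a4 and Cd52, at 0.551, 0.556 and 0.604 (median 2.07); Lgals3, galectin-3, is abundant in macrophages and Cd52 is a surface protein of leukocytes. For Cd36 they were Epb41, Lamb2 and Smtn, at 0.0706, 0.0723 and 0.0753 (median 0.575), and for Lpl they were Mapt, Prkce and Cep85, at 0.185, 0.194 and 0.233 (median 0.700). These distances describe likeness in 8 libraries that share the contrasts just described, and they carry no test.

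Other genes of lipase and lipoprotein handling were counted from a list of 28. Of these 25 were listed and 20 tested, and 1 passed in the lower direction, the deleted Gpihbp1, with 0 higher. Over all tested genes 0.0312% passed. Signs were 9 positive and 11 negative with a median of -0.011, against -0.019 over all tested genes. Furin, a convertase that cleaves lipoprotein lipase, had 0.48 (SE 0.35, edgeR unadjusted p = 0.197). The sorting receptor Sorl1 had 0.41 (SE 0.36). The abundant Apoe, an apolipoprotein made in quantity by macrophages, had -0.72 (SE 0.67), with 2309 CPM in wild-type 2 against 239.7 to 847.5 in the other 7 hearts, and turned to 0.39 without wild-type 2. The heparan sulfate proteoglycan Hspg2 had 0.0027 (SE 0.36).

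Other genes of fatty acid uptake and activation were counted from a list of 30, of which 27 were listed and 20 tested. None (0 of 20) passed in either direction, against 0.0312% of all tested genes. Signs were 10 positive and 10 negative, and the median was 0.00017, against -0.019 over all tested genes. Dbi, the acyl-CoA binding protein that buffers activated fatty acids, was the 1 gene of the 20 with an unadjusted p under 0.05. Over all tested genes that share was 0.904%. The log2 fold change of Dbi was -1.12 (SE 0.45, edgeR unadjusted p = 0.0328, adjusted p = 0.99998). It had 168, 125, 79.1 and 389 CPM in wild-type 2, 4, 5 and 6 and 76.8, 105, 86.7 and 81.7 CPM in knockout 1, 2, 3 and 4. As with Fabp3, wild-type 6 was the highest heart, and without it the value was -0.52 (unadjusted p = 0.0894). Zdhhc4, a palmitoyltransferase of Cd36, had -0.53 (SE 0.31), the transporter Slc27a4 -0.27 (SE 0.28) and the acyl-CoA synthetase Acsl6 0.26 (SE 0.44). The main cardiac synthetase Acsl1 had 0.16 (SE 0.61), with 184 to 1125 CPM in the wild type and 237 to 861 in the knockout, and Got2, a mitochondrial transaminase also described as a fatty acid binding protein of the plasma membrane, had 0.25 (SE 0.45).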

How the data were processed

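Hearts of 8 male mice were profiled by strand-specific, poly(A)-selected, paired-end sequencing on a DNBSEQ instrument, per the labels' protocols, 1 paragraph of which names rat tissue although every sample is labelled mouse. HISAT, Bowtie2 and GRCm39 stand in the submitters' processing notes. Reads were counted with a program not given in the sources used here. Estimated counts, TPM and FPKM of every library were deposited by the authors in 1 table, per the file headers. Another 8 empty per-sample columns were not used. FPKM entered no test, and TPM served for levels, ratios and limma. Between 4.32% and 5.89% of a library's counts were not whole, and counts were rounded.

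Genes were kept by filterByExpr (minimum count 10, minimum total 15) and tested with edgeR 4.0.16 (R 4.3.3), the robust quasi-likelihood F-test after TMM scaling, and Benjamini-Hochberg adjustment over all 12826 genes and a threshold of 0.05. A standard error is the fitted log2 change over the root of its F. The fit was tested on simulated data. Log2 CPM used a prior count of 2. The biological coefficient of variation was 43.7%. Alternatives were RLE or no scaling, 2 filters, DESeq2 1.42.0, limma 3.58.1, a replicate block and each library left out.

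Named genes were the members, Gpihbp1, in each pathway list the 4 smallest p-values and 2 highest levels, and the 3 nearest genes in pattern for 4 members. Marker genes stand beside results, and Actc1, Ryr2, Dcn and Tcf21 were named after their values were seen. Among the genes this rule picks, 1 entered the fit and the counts but is not reported here. The members, lists, ratios and tests were chosen with earlier results of these data known. Promoter sequence came from a table of another build (GRCm38.p6) than the one in the processing notes, matched by gene identifier.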

Additional observations from a re-analysis of the deposited data

Results flagged for a closer look

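In groups of 4 hearts, 22 gene and group combinations were examined (the 10 members and Gpihbp1). In 6 of them 1 library lay far from the other 3 by Dixon's criterion at the 95% level (the gap to the nearest heart over the group's range). For normally distributed values chance flags about 1 in 20. That rate need not hold here, since the values were CPM off the log scale, some of them near 0. Of the 6 flagged, 3 lay in knockout 2: Angptl4 at 86.1 CPM with the next at 3.01, Cd36 at 856 CPM with the next at 1460, and Lipg at 0.788 CPM with the next at 0.0942. Fabp3 stood at 14288 CPM in wild-type 6, with the next at 4287. Lmf1 stood at 53.1 CPM in knockout 3, with the next at 37.7. Gpihbp1 stood at 0.0979 CPM in knockout 3, which is 1 read, with the next at 0, so this flag follows from that read alone.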

How the results depend on the processing

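In edgeR, 4 genes differed between the genotypes. The count was 2 with the strict filter, 8 with DESeq2 and 168 with the replicate block, and ran from 2 to 3 over the fits without 1 library (2 without wild-type 4 or wild-type 5). The block used the numbers in the sample titles, of which only 2 and 4 occur in both genotypes; the deviations of same-numbered hearts correlated at 0.908 for number 2 and 0.110 for number 4, and nothing says that a number marks a shared litter or day. The count of members past the threshold was 0 under all 17 alternatives, with the replicate block included, and over 153 member values 3 had an unadjusted p under 0.05.

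Signs turned in the following fits. On log2(TPM + 1) Lpl was 0.00066, Lmf1 0.33, Angptl4 -0.48, Fabp5 0.044, Slc27a1 0.046, Apoe 0.071 and Slc27a4 0.062. With the replicate block Lmf1 was 0.29, Angptl4 -0.18 and Slc27a4 0.19. With library totals only Lmf1 was 0.13. With RLE scaling Cd36 was -0.014 and Hspg2 -0.017, and with DESeq2 -0.013 and -0.017. Without wild-type 2 and knockout 2 Angptl4 was -2.07, Cd36 -0.045, Apoe 0.084 and Hspg2 -0.12. Without wild-type 6 as well Lmf1 was 0.22, Angptl4 -0.88, Cd36 -0.23, Vldlr -0.064, Apoe 0.29 and Hspg2 -0.39. Without 1 library Lmf1 ran from -0.21 to 0.27, Angptl4 from -3.21 to 1.24, Cd36 from -0.21 to 0.20, Vldlr from -0.20 to 0.44, Apoe from -1.03 to 0.39, Hspg2 from -0.19 to 0.18 and Acsl1 from -0.12 to 0.83. Fabp3 kept its sign, from -1.27 to -0.29, and Fabp4 from -0.78 to -0.25. The log2 ratio of Fabp3 to cardiomyocyte markers, -0.59, was -0.78 from reads and -0.68 to -0.51 without 1 library. The causes were not tested. Reads were not tagged as single molecules, and a depth of 9065553 to 13492957 counts left Lipg and most of the adipocyte markers with too few reads to compare.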

Other observations

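Other ratios within a heart were computed from TPM with the same two-sided exact permutation test, 9 in all with that of Fabp3, and none of the remaining 8 separated the genotypes (exact permutation p from 0.400 to 0.914). Angptl4 was 0.0929% to 5.22% of Lpl in the wild type and 0.0983% to 12.7% in the knockout, the widest of the 9 ratios, with the highest values in wild-type 2 and knockout 2. Fabp5 was 4.96% to 14.5% of Fabp4 in the wild type and 5.35% to 23.4% in the knockout. Fabp4 was 8.22% to 31.7% of Fabp3 in the wild type and 12.5% to 29.4% in the knockout. Against the sum of cardiomyocyte markers, Lpl ran from 0.584% to 2.09% in the wild type and from 0.851% to 1.43% in the knockout, Cd36 from 0.185% to 0.830% and from 0.497% to 0.806%, Slc27a1 from 0.0407% to 0.110% and from 0.0591% to 0.0885%, and Vldlr from 0.0119% to 0.0535% and from 0.0283% to 0.0386%. For each of these 4 genes the knockout range lay inside the wild-type range.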
